A study of Mus musculus with 4 samples.

Results

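The genes described here encode the collagen chains, chosen as every probe whose gene symbol on the array platform has the form Col, a number, a and a number. Of 46657 probes, 62 carried such a symbol, and they belonged to 37 of the 15366 named genes. Each gene was read from its brightest probe, judged by the mean of all 4 arrays. RNA of male mouse bladders was hybridised to single-colour Illumina arrays, in 2 sham-operated samples and in 2 samples from 14 days of partial outlet obstruction, in which the outflow of urine is narrowed by surgery. The groups were taken from the sample titles, since the treatment label names the obstruction for all 4 samples. Replicates 1 and 2 of a group are called its first and second array. All mice were on a normal diet, and the labels name no strain, age or allele. They do not say whether an array holds 1 mouse or a pool, so that the p-values measure only how far these samples spread, and that spread may be technical.

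Collagens are trimers of chains that wind around each other, and the chains of a trimer may be products of 1 gene or of several. Fibrillar collagens bundle into the cables that carry tension in the bladder wall. Network collagens form lattices, basement membrane collagens form the sheet under the urothelium and around each smooth muscle cell, FACIT collagens sit on the surface of fibrils, and beaded filament collagens link cells to the matrix around them. In the obstructed bladder the balance of muscle and matrix is known to shift, and collagen content is a common measure of how stiff the wall becomes.

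Values are log2 intensities, with a median of 5.80 over all probes, and a difference is always obstructed minus sham. Differences were tested with limma over all 15366 genes, with Benjamini-Hochberg adjustment and an adjusted p below 0.05 called. No detection call was used, so that a value near 5.80 cannot be told from background. For 11 of the 37 genes both group means lay below 5.80, with single values from 5.15 to 5.91. These were Col2a1, Col4a3, Col4a4, Col5a3, Col6a6, Col9a1, Col9a2, Col9a3, Col11a2, Col13a1 and Col27a1, and their differences ran from -0.27 to 0.35. The other 26 genes are given below with their values in each array.

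The groups also differed in marker genes of several tissues. As markers of the bladder, all 8 smooth muscle genes listed had a group mean above 5.80, as did 5 of 7 urothelial genes, among them Upk2 between 13.82 and 14.11. Secretory genes of the male accessory glands were higher in both obstructed arrays for 10 of 10 markers. Their summed linear intensity was 4252 and 482 in the sham arrays, 11451 in the first obstructed array and 239991 in the second. In the first sham array Sbp measured 11.91 and the other markers lay between 4.86 and 6.16, so that its sum came mostly from Sbp. The smooth muscle list had a median difference of -0.79 (-0.24 in the first obstructed array, -1.22 in the second), and 6 of its 8 genes had a lower mean, Des and Tagln being the exceptions. Its summed linear intensity was 126203 and 152467 in sham and 116937 and 77591 in obstructed bladders. Markers of some other tissues were also mostly lower in obstructed bladders. Skeletal muscle genes had a lower mean in 6 of 6 (median -0.74, Tnnt3 -2.36) and mesothelial genes in 5 of 5 (median -0.54, Lrrn4 -1.59). Adipocyte genes had a lower mean in 5 of 7 (median -0.37), from Adipoq (-4.00) and Cidec (-2.09) to Fabp4 (-0.14). Pparg (0.069) and Retn (0.056) were the exceptions. Glial genes had a lower mean in 2 of 2 (Mbp -2.22). The endothelial and leukocyte lists had medians of -0.096 and -0.025. Both medians were above 0 in the first obstructed array (0.23 and 0.28) and below it in the second (-0.33 and -0.34). The part of these lists in the collagen values was not tested. In a whole bladder, fewer cells of a type and less RNA per cell cannot be told apart.

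None of the 37 collagen chain genes passed the test by limma, where 0.0521% of all genes did, 0.0260% upward and 0.0260% downward. At an unadjusted p below 0.05, 2 were higher, Col8a1 and Col26a1, against 3.05% of all genes, and 3 were lower, Col8a2, Col4a6 and Col4a5, against 5.09% of all genes. The obstructed arrays lay above both sham arrays in 6 of the 37 (16.2%, where 17.6% of all genes did so) and below both in 8 (21.6%, where 21.6% of all genes did so). Both shares lie near those of all genes. The median difference was -0.048 over the collagen chain genes and -0.016 over all genes, and 17 of 37 had a higher mean (45.9%, where 46.9% of all genes did). Over the 4 arrays, 24 of the 37 had a mean above 5.80, as did 68.8% of all genes. Differences of at least 2-fold, in 1 gene upward (2.70% of members, 0.937% of all genes) and 2 downward (5.41%, against 1.13% of all genes), were those of Col8a1, Col8a2 and Col4a6.

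**Figure D1:**
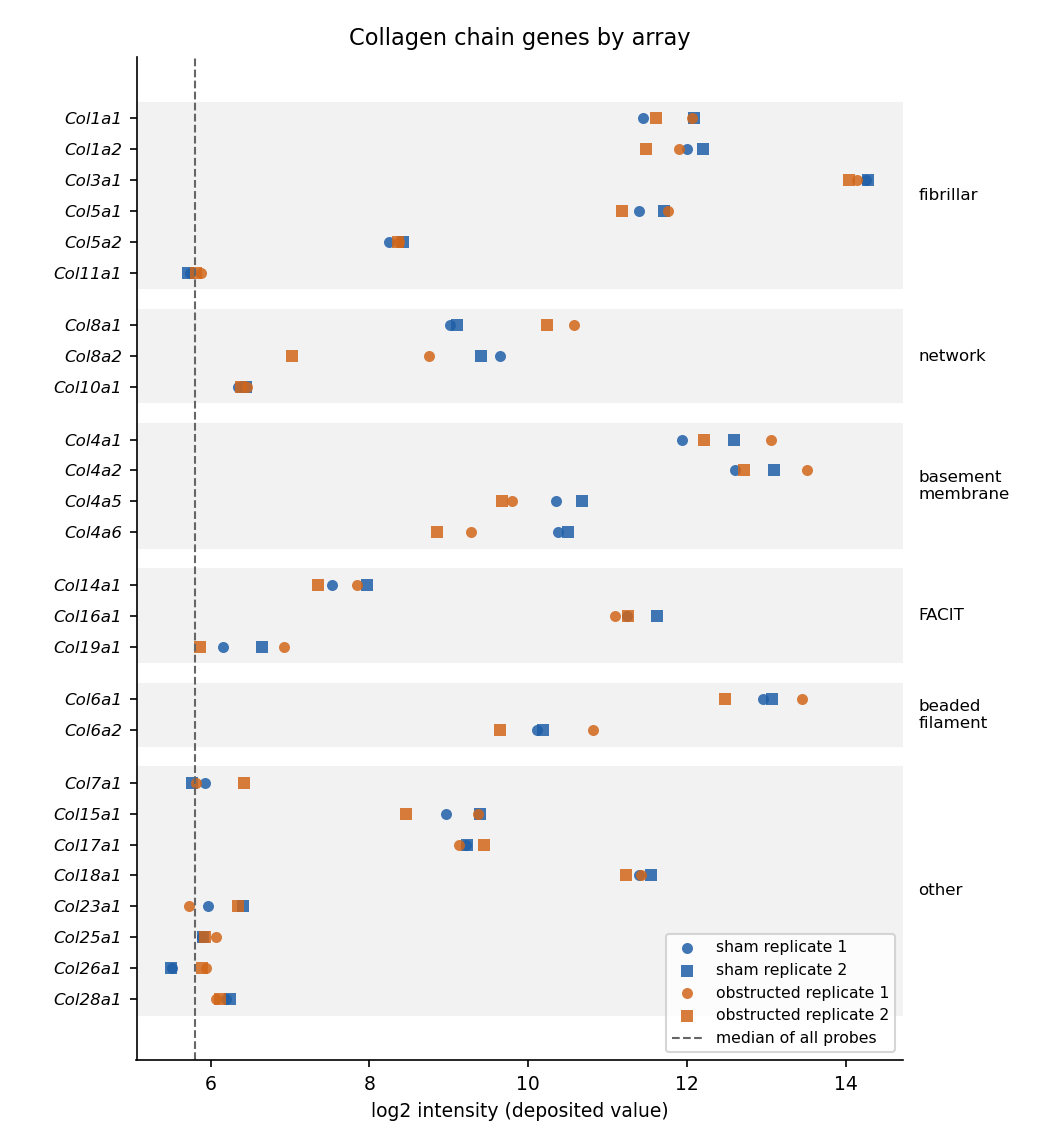
Log2 intensity of the 26 collagen chain genes with at least 1 group mean above the all-probe median (dashed, 5.80), 1 point per array, grouped by type. Col8a1 and Col8a2 separate the sham (blue) from the obstructed (orange) arrays in opposite directions, and Col4a5 and Col4a6 lie lower in both obstructed arrays. Positions of different genes are not comparable, since probes differ in brightness.

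The network collagens held a higher and a lower chain of 1 collagen type. Col8a1 encodes the alpha 1 chain of type VIII collagen, which vascular and other smooth muscle cells secrete and which forms hexagonal lattices. It measured 9.02 and 9.10 in sham and 10.57 and 10.24 in obstructed bladders. Both obstructed arrays lay above both sham arrays. Its log2 difference was 1.35 (SE 0.22, 95% interval 0.81 to 1.89), 2.55-fold, with an unadjusted p of 8.24e-04 and an adjusted p of 0.173 by limma. A second probe of the gene gave 8.27 and 8.79 in sham and 10.89 and 10.01 in obstructed bladders, a difference of 1.92.

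Col8a2 encodes the alpha 2 chain of the same collagen, which can join alpha 1 in a trimer or form trimers of its own. It measured 9.64 and 9.41 in sham and 8.76 and 7.02 in obstructed bladders. The groups did not overlap here either, but with the obstructed arrays below, and the obstructed arrays lay far apart. The log2 difference was -1.64 (SE 0.54, 95% interval -2.95 to -0.32), with an adjusted p of 0.525 by limma. The first obstructed array lay at -0.77 and the second at -2.51, and the second also had the highest accessory gland and the lowest smooth muscle sums. A dimmer Col8a2 probe, below 5.80 in every array, differed by -0.23, and the mean of both probes by -0.93.

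The last network gene, Col10a1, is known from hypertrophic cartilage. It measured 6.35 and 6.44 in sham and 6.45 and 6.38 in obstructed bladders, and these values overlapped (difference 0.025). Of 7 cartilage markers measured, 4 lay below 5.80 in all arrays. Chad (0.85) was higher in both obstructed arrays and Acan (-0.12) was lower in both. Sox9 (1.10, SE 0.64) lay 0.038 above the sham mean in the first obstructed array and 2.17 above it in the second.

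Within each array, Col8a1 relative to Col8a2 stood higher in both obstructed bladders, by 2.29 and 3.69 above the sham mean, where the sham arrays had an SD of 0.22 for this ratio. The mean shift was 2.99 on the log2 scale, or 7.93-fold. With 2 arrays against 2, an exact two-sided permutation test cannot give a p below 0.333, and that was its value here. The genes lie on different chromosomes. The 250 bases before each start are printed to show what the promoters of the chains that moved apart contain, from RefSeq on GRCm38.p6, as chr16:57754738-57754987 on the minus strand for Col8a1 and chr4:126286544-126286793 on the plus strand for Col8a2. Capitals mark matches to GGGCGG, the GC box, on either strand.
Col8a1: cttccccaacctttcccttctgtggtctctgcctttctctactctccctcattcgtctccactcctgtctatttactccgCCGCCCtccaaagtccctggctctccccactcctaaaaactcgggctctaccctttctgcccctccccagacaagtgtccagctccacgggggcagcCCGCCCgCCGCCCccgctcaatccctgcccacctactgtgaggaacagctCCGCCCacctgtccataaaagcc
Col8a2: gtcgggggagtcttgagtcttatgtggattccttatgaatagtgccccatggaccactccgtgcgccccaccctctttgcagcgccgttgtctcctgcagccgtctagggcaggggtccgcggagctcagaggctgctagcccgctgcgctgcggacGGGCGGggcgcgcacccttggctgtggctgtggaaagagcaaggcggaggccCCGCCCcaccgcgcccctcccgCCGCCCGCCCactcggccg
Each of these promoters held 4 GC boxes, of which 2 in Col8a2 overlap.

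The basement membrane collagens divided by chain. Col4a5 and Col4a6 encode the alpha 5 and alpha 6 chains of type IV collagen, which assemble together in the basement membranes of smooth muscle, bladder included, and of some epithelia. Col4a6 measured 10.37 and 10.51 in sham and 9.28 and 8.85 in obstructed bladders. Both obstructed values lay below both sham values, by more than the spread of either group. The log2 difference was -1.38 (SE 0.24), a 2.60-fold lower level, with a 95% interval of -1.95 to -0.80. By limma its unadjusted p was 0.00107 and its adjusted p 0.199. A dimmer Col4a6 probe gave a difference of -0.88, and another, below 5.80 in every array, gave 0.084. The mean of all its probes differed by -0.73.

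Col4a5 measured 10.35 and 10.67 in sham and 9.80 and 9.67 in obstructed bladders. Here too the groups did not overlap. The log2 difference of Col4a5 was -0.77 (SE 0.22, 95% interval -1.31 to -0.24, adjusted p = 0.460 by limma). Its second probe gave -0.83. In the first and the second obstructed array Col4a5 lay at -0.71 and -0.84, and Col4a6 at -1.16 and -1.59, so that the lower values of this pair were present in both arrays. The median of the smooth muscle list was also below 0 in both, as given above. Relative to Col4a6, Col4a5 stood 0.45 and 0.76 above the sham mean in the obstructed arrays, with a sham SD of 0.14 for this ratio. An exact two-sided permutation test cannot give a p below 0.333 here. Over the 6 basement membrane collagens measured, 2 had a higher and 4 a lower mean, with a median difference of -0.16.

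Col4a1 and Col4a2 encode the alpha 1 and alpha 2 chains, the form of type IV collagen found in nearly every basement membrane. Col4a1 measured 11.94 and 12.59 in sham and 13.06 and 12.22 in obstructed bladders. Col4a2 measured 12.61 and 13.09 in sham and 13.51 and 12.72 in obstructed bladders. In both genes the values overlapped, with the first obstructed array the highest and the second between the sham arrays. Their differences were 0.38 (SE 0.34, 95% interval -0.46 to 1.21) and 0.26 (SE 0.30, 95% interval -0.46 to 0.99). Col4a3 and Col4a4, whose chains belong to the kidney filter and a few other sites, were among the dim genes.

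Chains of type IV collagen are encoded in head-to-head pairs, with the members of a pair read away from each other. In the RefSeq promoter table the starts of Col4a1 (minus strand) and Col4a2 (plus strand) lay on chromosome 8 such that the transcripts overlap by 22 bases. The starts of Col4a6 (minus strand) and Col4a5 (plus strand) lay 1343 bases apart on chromosome X. Any part of this layout in the differences was not tested. The stretch shared by the first pair, and the 250 bases before each start of the second pair, are printed to show what they contain. They are chr8:11312805-11312826 written on the plus strand, chrX:141474077-141474326 on the minus strand for Col4a6, and chrX:141475169-141475418 on the plus strand for Col4a5, all on GRCm38.p6. Capitals mark GGGCGG and CCAAT on either strand.
Col4a1 and Col4a2: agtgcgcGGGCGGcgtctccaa
Col4a6: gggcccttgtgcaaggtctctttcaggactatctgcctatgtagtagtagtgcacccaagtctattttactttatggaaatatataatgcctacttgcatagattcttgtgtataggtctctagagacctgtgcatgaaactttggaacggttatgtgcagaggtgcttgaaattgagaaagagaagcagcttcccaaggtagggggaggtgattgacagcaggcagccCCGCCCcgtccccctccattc
Col4a5: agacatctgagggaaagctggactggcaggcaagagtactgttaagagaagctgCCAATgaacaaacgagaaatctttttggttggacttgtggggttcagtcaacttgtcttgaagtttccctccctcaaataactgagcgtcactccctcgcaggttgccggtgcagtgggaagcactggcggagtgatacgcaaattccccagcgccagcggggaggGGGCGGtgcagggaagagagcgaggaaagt
Col4a6 held 1 GC box, 21 bases before its start, and Col4a5 held 1 GC box and 1 CCAAT box.

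**Figure D2:**
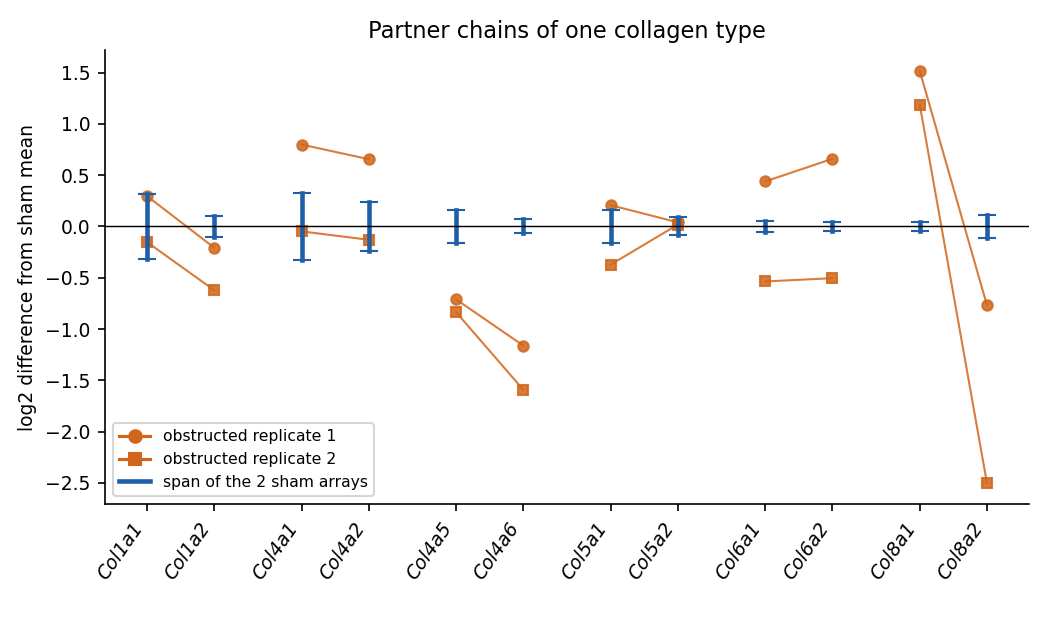
Log2 difference from the sham mean for partner chains of collagen types I, IV, V, VI and VIII in the first (circles) and second (squares) obstructed array, with the span of the 2 sham arrays in blue. Lines join partners within an array. In types IV and VI, Col4a1 lies on the same side as Col4a2 and Col6a1 on the same side as Col6a2 within each array, while Col8a1 and Col8a2 lie on opposite sides of 0.

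Promoters were found for 30 of the 37 genes. A GC box (GGGCGG) stood in those of 19 genes (63.3%), and in 32.7% of the 32851 promoter windows of the same length. CCAAT stood in 12 genes (33.8% of all windows), TATAAA in 5 (12.4%) and GATAA, the core read by GATA factors, in 6 (22.6%). The CArG box, the element of serum response factor, stood in 0 of the 30 and in 1.47% of all windows. Both strands were searched, and overlapping matches were counted separately. These are counts of letters in a short window and say nothing of binding.

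The fibrillar collagens, which make up most of the collagen of the bladder wall, showed small differences. Col3a1, the single gene of type III collagen, measured 14.25 and 14.28 in sham and 14.15 and 14.04 in obstructed bladders. The obstructed values lay just below, and the difference was -0.18 (SE 0.11, 95% interval -0.44 to 0.087, adjusted p = 0.725 by limma). A dimmer probe of Col3a1, at 7.98 and 8.93 in sham and 7.92 and 7.58 in obstructed bladders, differed by -0.71, and the mean of both probes by -0.44. Markers of fibroblasts, which make these chains, had a median difference of -0.33 over 7 genes, at -0.29 in the first obstructed array and -0.71 in the second. The mean was lower in 6 of them, from Gsn (-1.16) to Dpp4 (-0.036). Pi16 (0.48) was the exception, above both sham arrays in both obstructed arrays.

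Type I collagen is a trimer of Col1a1 and Col1a2 chains. Col1a1 measured 11.44 and 12.08 in sham and 12.06 and 11.61 in obstructed bladders. Its values overlapped, with a difference of 0.072 (SE 0.28, 95% interval -0.61 to 0.75). Col1a2 measured 12.01 and 12.21 in sham and 11.90 and 11.49 in obstructed bladders, and here the obstructed values were the lower ones, without overlap. The difference of Col1a2 was -0.41 (SE 0.21, 95% interval -0.92 to 0.096, adjusted p = 0.684 by limma). Relative to Col1a2, Col1a1 stood 0.50 and 0.47 above the sham mean in the obstructed arrays, with a sham SD of 0.31 for this ratio and an exact two-sided permutation p of 0.333, the smallest the design allows.

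Type V collagen, whose Col5a1 and Col5a2 chains start new fibrils and limit their width, overlapped between the groups. Col5a1 measured 11.40 and 11.71 in sham and 11.76 and 11.19 in obstructed bladders (difference -0.082). Col5a2 measured 8.25 and 8.43 in sham and 8.38 and 8.36 in obstructed bladders (difference 0.029, with 0.079 for a second probe). Col11a1, best known from cartilage fibrils, lay at 5.75 and 5.72 in sham and 5.88 and 5.82 in obstructed bladders, around the median of all probes. Over the 10 fibrillar genes measured, the mean was higher in 7 and lower in 3, with a median difference of 0.036. Of the 5 with a mean over all arrays above 5.80, 2 had a higher and 3 a lower mean. Col24a1 was not analysed here.

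**Figure D3:**
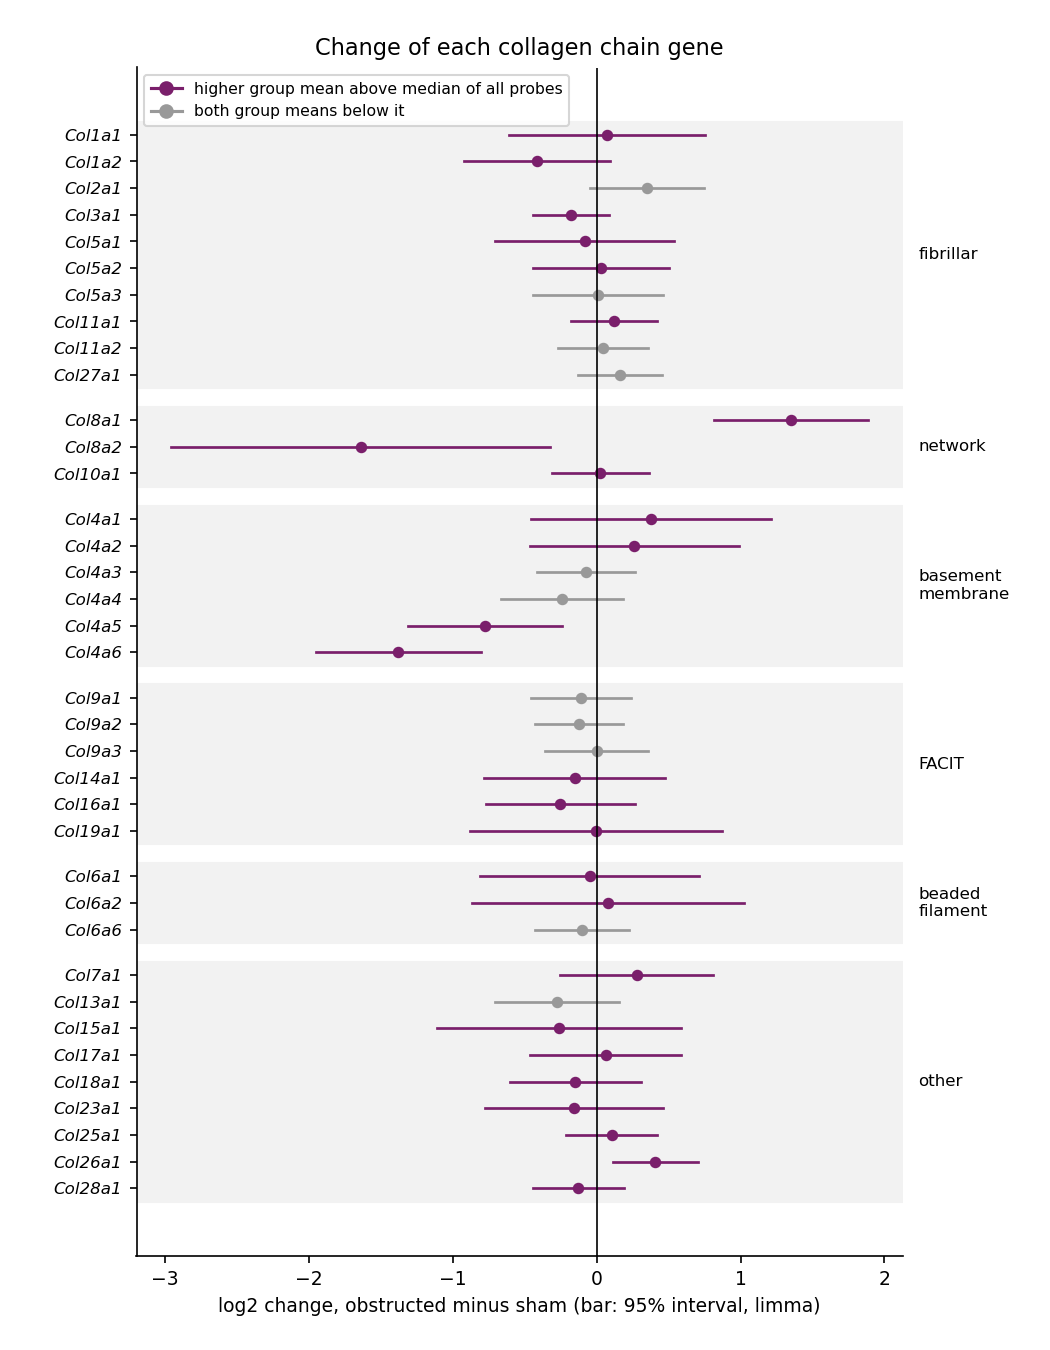
Log2 difference, obstructed minus sham, of all 37 collagen chain genes with 95% intervals of the limma fit, by type. Grey marks the 11 genes with both group means below the median of all probes. The intervals of Col8a1, Col8a2, Col4a5, Col4a6 and Col26a1 exclude 0 before adjustment, and 0 of 37 pass after it.

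Among FACIT collagens, 6 were measured and the median difference was -0.12. Col16a1, which is found at fibrils and near smooth muscle, measured 11.24 and 11.62 in sham and 11.10 and 11.26 in obstructed bladders (difference -0.25). Col14a1, a fibril surface collagen of fibroblasts, measured 7.53 and 7.98 in sham and 7.85 and 7.35 in obstructed bladders (difference -0.15). Col19a1 measured 6.16 and 6.64 in sham and 6.92 and 5.87 in obstructed bladders, with the obstructed arrays at either end. The groups overlapped in each of these genes, and the type IX genes were dim. Col12a1, Col20a1, Col21a1 and Col22a1 were not analysed here.

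The beaded filament collagen, type VI, surrounds muscle cells and fibroblasts. Col6a1 measured 12.95 and 13.07 in sham and 13.45 and 12.47 in obstructed bladders. Col6a2 measured 10.11 and 10.19 in sham and 10.81 and 9.65 in obstructed bladders. In both genes the first obstructed array was the highest and the second the lowest, so that the differences of -0.048 and 0.078 are means of values on opposite sides of sham. Col6a1 relative to Col6a2 stood at -0.22 and -0.032 from the sham mean in the obstructed arrays, with a sham SD of 0.024 for this ratio. Other Col6a1 probes differed by -0.18 and -0.51. Col6a3, Col6a4 and Col6a5 were not analysed here.

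Of the remaining types, Col26a1, a collagen first described in testis and ovary, measured 5.51 and 5.51 in sham and 5.95 and 5.89 in obstructed bladders. Its groups did not overlap (difference 0.41, SE 0.12, adjusted p = 0.480 by limma), but the sham values lay below 5.80 and the obstructed values just above it. Col7a1, the anchoring fibril collagen under stratified epithelia, measured 5.92 and 5.76 in sham and 5.82 and 6.42 in obstructed bladders. Col17a1, a transmembrane collagen of hemidesmosomes in basal epithelial cells, measured 9.22 and 9.23 in sham and 9.13 and 9.44 in obstructed bladders. Both overlapped (differences 0.28 and 0.062), and the 7 urothelial markers measured had a median difference of 0.010.

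Col15a1 and Col18a1 encode collagens of the basement membrane zone that carry sugar chains and, in Col18a1, the endostatin fragment. Col15a1 measured 8.96 and 9.40 in sham and 9.37 and 8.47 in obstructed bladders (difference -0.26). Col18a1 measured 11.40 and 11.55 in sham and 11.42 and 11.23 in obstructed bladders (difference -0.15). Both overlapped between the groups. The transmembrane collagen Col23a1 measured 5.97 and 6.41 in sham and 5.72 and 6.34 in obstructed bladders (difference -0.16), and a second probe differed by 0.10, with the opposite sign. Col25a1, another transmembrane collagen, measured 5.89 and 5.90 in sham and 6.07 and 5.93 in obstructed bladders (difference 0.11). Col28a1 measured 6.19 and 6.24 in sham and 6.07 and 6.11 in obstructed bladders (difference -0.13). The groups did not overlap in Col25a1 and Col28a1, by small margins, and overlapped in Col23a1.

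The obstructed arrays differed from each other in these genes. Of the 37 genes, 27 were lower in the second obstructed array than in the first (73.0%, where 53.8% of all genes were), with a median gap of -0.13 against -0.026 over all genes. In 17 of the 37 the obstructed arrays lay on opposite sides of the sham mean (45.9%, where 38.7% of all genes did). The median over the collagen chain genes was 0.040 in the first obstructed array and -0.13 in the second.

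Leaving out an obstructed array changed the calls. Without the first, limma called 4 of the 37 genes (10.8%, where 8.45% of all genes were called). These were Col8a1, which rose (adjusted p = 0.00354), against 3.38% of all genes, and Col8a2 (adjusted p = 4.40e-06), Col4a6 (adjusted p = 3.21e-04) and Col4a5 (adjusted p = 0.0379), which fell, against 5.08% of all genes. Without the second it called 2 (5.41%, where 2.10% of all genes were called), Col8a1 upward (adjusted p = 0.00162, 1.00% of all genes) and Col4a6 downward (adjusted p = 0.0117, 1.10% of all genes). In these fits the single obstructed array is assumed to vary like the sham arrays. The values do not bear this out. Over the collagen chain genes the median SD was 0.10 in sham and 0.22 in obstructed arrays, and over all genes 0.11 and 0.15. For Col8a2 the SD was 0.16 in sham and 1.23 in obstructed arrays. These calls rest on the smaller sham spread, and no conclusion is drawn from them. Without the first or without the second sham array limma called 0 collagen genes and 0% of all genes. The differences without the first and without the second sham array were 1.31 and 1.39 for Col8a1 and -1.52 and -1.75 for Col8a2. They were -1.45 and -1.31 for Col4a6 and -0.94 and -0.61 for Col4a5.

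**Figure D4:**
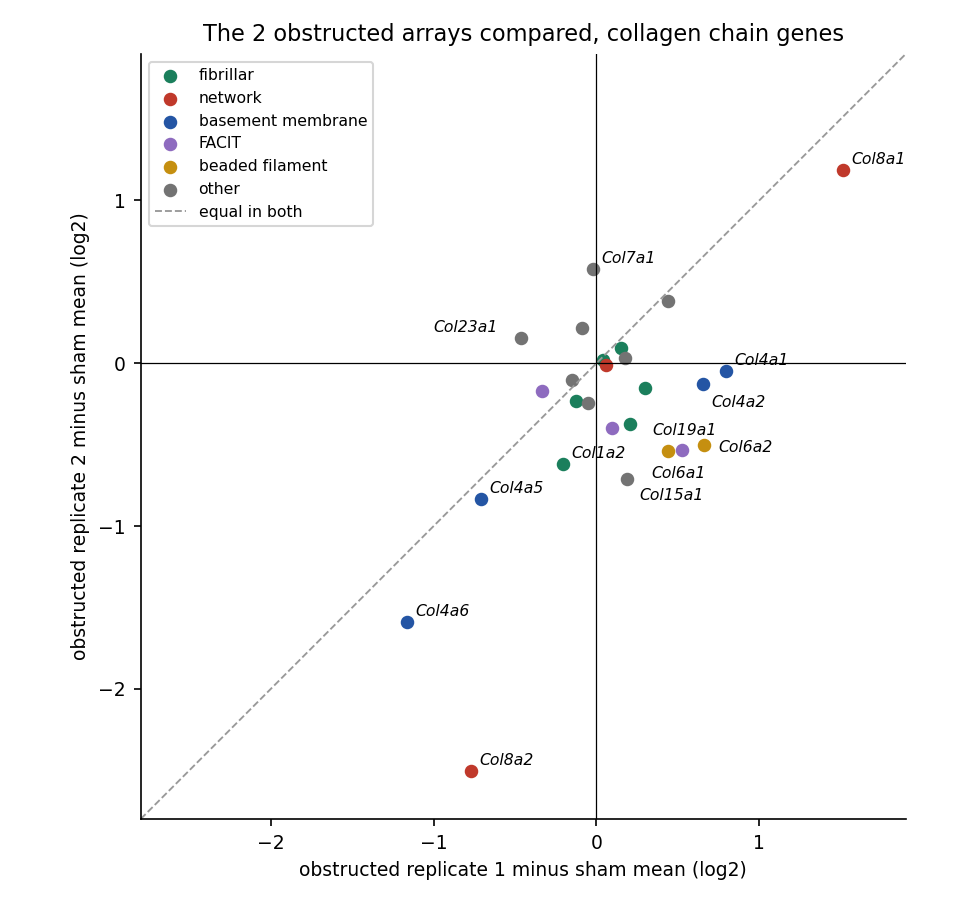
Log2 difference from the sham mean in the first (x axis) and second (y axis) obstructed array for the 26 brighter collagen chain genes, coloured by type, with the line of equality dashed. Of these 26, 21 lie below the line (80.8%, against 55.8% of all genes with a higher group mean above the median probe). In 13 of the 26 the arrays lie on opposite sides of 0 (50%, against 37.7% of all such genes). Col8a1, Col4a5, Col4a6 and Col8a2 are among the others, on the same side in both arrays.

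New chains are hydroxylated, folded, trimmed and crosslinked by a set of enzymes and chaperones, and 31 genes of this set were measured. None passed the test over all genes. At an unadjusted p below 0.05 by limma, 3 were higher, Lox, Loxl2 and P4hb, and 0 were lower. Of all genes, 3.05% were higher and 5.09% lower by this rule. The median difference of the set was -0.0049, with 0.20 for the first obstructed array and -0.13 for the second. Without the first obstructed array limma called 8 of the 31, where 8.45% of all genes were called. Of these, Lox, Loxl2, Mia2 and P4hb rose, and Crtap (-0.93), Pcolce (-1.09), Pcolce2 (-2.06) and Serpinh1 (-0.64) fell. Without the second it called 3, where 2.10% of all genes were called, and Lox, Loxl1 and Loxl2 all rose. The limit given above for calls with an obstructed array left out holds here too. The obstructed arrays lay above both sham arrays in 7 of the 31, where 17.6% of all genes did so, and below both in 2, where 21.6% of all genes did so.

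The lysyl oxidases, which start the crosslinks between fibrils, differed among themselves. Loxl1, a lysyl oxidase that acts on elastin, measured 11.31 and 11.28 in sham and 12.57 and 11.57 in obstructed bladders (difference 0.77, SE 0.33, adjusted p = 0.638 by limma). Lox measured 10.17 and 10.36 in sham and 11.20 and 11.17 in obstructed bladders, and Loxl2 9.99 and 10.19 in sham and 11.25 and 10.88 in obstructed bladders. In these 3 genes the obstructed arrays lay above both sham arrays, and the differences of Lox and Loxl2 were 0.92 (SE 0.19, adjusted p = 0.302 by limma) and 0.97 (SE 0.22, adjusted p = 0.334). Loxl3 and Loxl4, close to the median of all probes, differed by -0.15 and -0.13.

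Hydroxylases and chaperones varied between the arrays. P4hb, the disulfide isomerase subunit of prolyl hydroxylase, measured 12.11 and 12.14 in sham and 12.73 and 13.09 in obstructed bladders (difference 0.79, SE 0.18, adjusted p = 0.334 by limma). Serpinh1, the collagen chaperone HSP47, measured 13.01 and 13.06 in sham and 13.50 and 12.40 in obstructed bladders, on either side of sham. Plod2, which hydroxylates the lysines used for stable crosslinks, differed by 0.42, with both obstructed arrays above sham, while Plod1 and Plod3 differed by -0.34 and 0.14. Pcolce and Pcolce2, which speed the removal of the procollagen tail, lay at 0.20 and 0.32 above the sham mean in the first obstructed array and at -1.09 and -2.06 in the second.

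**Figure D5:**
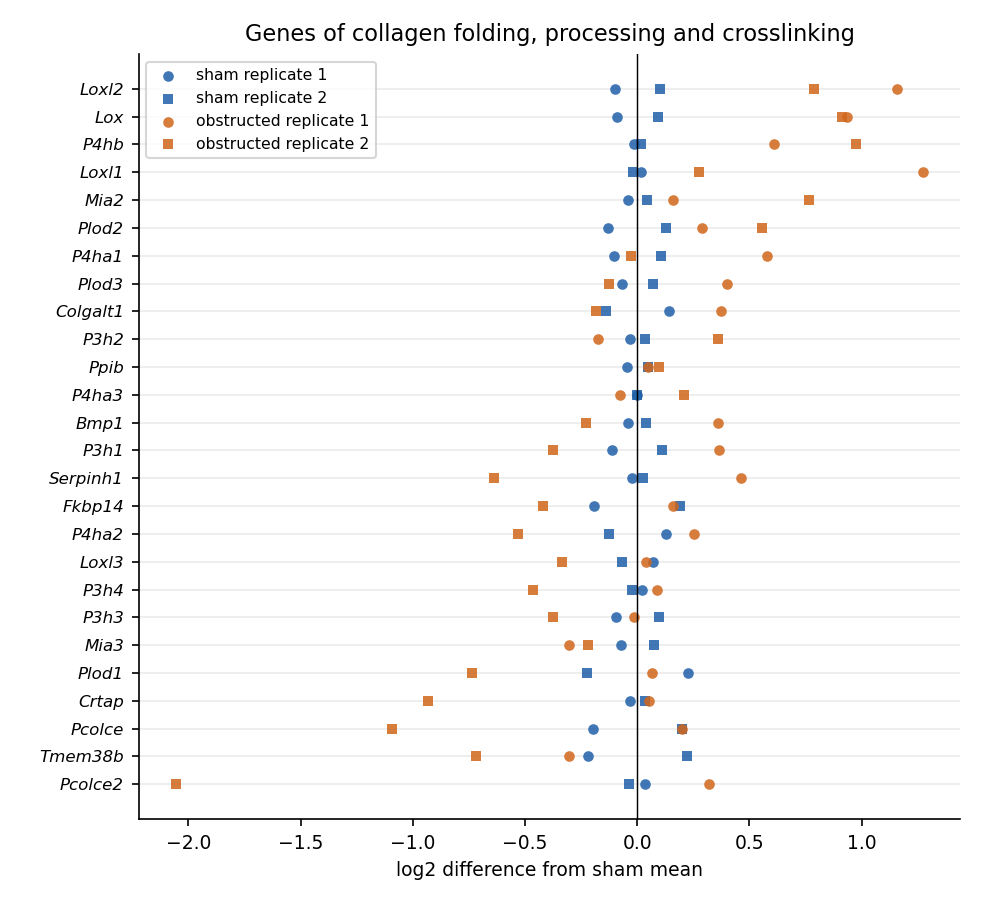
Log2 difference from the sham mean in each array for 26 genes of collagen folding, processing and crosslinking, those with a higher group mean above the median of all probes, ordered by difference. Both obstructed arrays (orange) lie to the right of both sham arrays (blue) for Loxl2, Lox, P4hb and Loxl1, and they lie apart for Serpinh1, Pcolce and Pcolce2.

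Genes that work beside the collagens were described in the same way. Of 11 basement membrane partners, 0 passed the limma test, and the median difference was -0.27. Before adjustment at p below 0.05, 0 were higher (3.05% of all genes) and 1 was lower (5.09% of all genes). That gene was Nid2, which bridges laminin and type IV collagen, at 10.22 and 10.18 in sham and 8.80 and 8.15 in obstructed bladders (difference -1.72, SE 0.27, adjusted p = 0.163). Its obstructed values lay below sham in both arrays, as did those of the laminin genes Lamc1 (-0.53), Lama4 (-0.48) and Lamb1 (-0.39). The laminin genes Lamb2 (0.30) and Lamb3 (0.24) lay above sham in both arrays, also without overlap. The proteoglycan Hspg2, at -0.064, overlapped.

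Of 17 fibril-associated matrix genes 0 passed by limma. At an unadjusted p below 0.05, 2 were higher, where 3.05% of all genes were, and 2 lower, where 5.09% were. The 2 that were higher were Eln (1.98, SE 0.36), the core protein of elastic fibres, and Aspn (1.01, SE 0.22), which binds collagen fibrils, and the 2 that were lower were Lum (-0.78) and Ogn (-0.70), proteoglycans that space fibrils. Of 6 collagen receptors 0 passed and 0 had an unadjusted p below 0.05. The discoidin receptors differed by 0.51 for Ddr1, an epithelial form, and by -0.45 for Ddr2, a fibroblast form, without overlap between the groups in either. Itga11 and Mrc2, an integrin chain and an uptake receptor for collagen, overlapped at -0.34 and 0.19.

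Of 10 proteases and inhibitors that control collagen breakdown, 0 passed by limma. At an unadjusted p below 0.05 Timp1 was higher (1.52), as were 3.05% of all genes, and Mmp9 lower (-1.51), as were 5.09%. Timp2 and Timp3 differed by -0.42 and 0.55, and the collagenase activator Mmp14 by 0.032. Of 16 genes listed by hand under TGF-beta signalling, 1 passed, Ltbp2 (log2 difference 3.70, adjusted p = 0.0165 by limma), where 0.0521% of all genes did. At an unadjusted p below 0.05, 2 were higher, where 3.05% of all genes were, and 2 lower, where 5.09% were. Ltbp2 measured 7.25 and 7.32 in sham and 11.11 and 10.86 in obstructed bladders, without overlap. This call was lost with a floor of 50, with an unmoderated fit and without either sham array, where limma called 0 genes. The other higher gene was Ccn2 (1.32), a target of the pathway, and the lower ones were the receptor Tgfbr3 (-0.76) and the signal mediator Smad4 (-0.57). Tgfb2, a ligand, overlapped at 0.75, and the median of the list was 0.11. Also overlapping were Tgfb1 (0.13), Tgfbr1 (0.22), Tgfbr2 (0.086), Smad2 (-0.051) and Smad3 (-0.13).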

How the data were processed

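Per the labels, biotinylated cRNA from bladders of male mice was put on Illumina arrays, 1 for each of 4 samples. The values deposited by the authors are taken as log2 intensities from their range of 4.14 to 15.63. Sorted by size, the values of the arrays were at most 0.0252 apart, as after quantile normalization, which forces equal distributions and so shows changes relative to all probes. Scanner software, background correction and filters were not given in the sources used here. The number of arrays limits the precision.

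Of 46657 probes, 22380 had 1 gene symbol in the platform annotation, 0 several and 24277 none. All 22380 were found in RefSeq by gene number, and 0 symbols changed. Groups were set against each other by limma 3.58.1 under R 4.3.3 (lmFit, then eBayes using a trend), two-sided, over 15366 genes, without a filter. Moderated tests had 6.04 degrees of freedom. The fit was tested on simulated data in which both groups had the same spread. The obstructed arrays spread more than the sham arrays here, so that test cannot speak to the calls of these data. Collagen types and other lists were written by hand. Values per array were given for collagen genes whose higher group mean lay above 5.80. From each other list the called genes were named, then the 4 with the smallest p among those with the higher group mean above 5.80. Some genes were named after their values were seen. These were Loxl3, Loxl4, Serpinh1, Plod1, Plod2, Plod3, Pcolce, Pcolce2, Hspg2, Lamb2, Lamb3, Mmp14, Tgfb1, Tgfbr1, Tgfbr2, Smad2 and Smad3. The tissue markers and the genes named only for a call without 1 array were also named in this way. Members and lists were chosen with earlier results of these data known. Of 16 collagen genes with several probes, 9 had at least 2 above 5.80, and in 1, Col23a1, these differed in sign. The deviations of same-numbered arrays from their group means had a correlation of -0.017. With 2 arrays a group both replicate numbers give this same value, so it cannot show whether samples were paired. Alternatives are given in the closing section. Promoter windows came from RefSeq (GRCm38.p6), and plots from matplotlib 3.10.9 under Python 3.11.15.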

Additional observations from a re-analysis of the deposited data

How the results depend on the processing

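With 2 arrays a group and an unknown origin of each, differences within the sham spread could not be read, and values near 5.80 cannot be told from background. No alternative outside the left-out arrays called a collagen chain gene or a collagen maturation gene by limma, among quantile normalization, median centring, a floor of 50, a brightness filter, the mean of all probes, every probe on its own, eBayes without a trend, an unmoderated fit, a robust trend, array weights, the replicate block and an adjusted p below 0.1. At an unadjusted p below 0.05 these gave 1 to 4 collagen genes higher and 2 to 3 lower by gene. Among all 15366 genes, or 10579 with the brightness filter, they gave 335 to 507 higher and 598 to 820 lower.

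The number of genes called among all genes was 8, and it was 0 with the floor of 50 or the unmoderated fit, 3 with the brightness filter, 17 with the robust trend, 23 at an adjusted p below 0.1 and 1 with the replicate block. It ran from 0 to 1299 when 1 array was left out. Called collagen genes then ran from 0 to 4 and maturation genes from 0 to 8, and collagen genes with a higher mean from 11 to 20. With the brightness filter 10 of 24 collagen genes had a higher mean, and with every probe on its own 27 of 62 probes. The median of the other collagens was -0.13, and it was -0.026 with all probes averaged and 0.021 with every probe on its own. When 1 array was left out it ran from -0.15 to 0.064, that of all collagen genes from -0.13 to 0.064, of beaded filament collagens from -0.50 to 0.44 and of the maturation genes from -0.13 to 0.20. The replicate block changed no call in these lists. The correlation of deviations (-0.017) cannot show whether the replicate numbers paired the samples.

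Of 414 comparisons of the 26 collagen genes over the settings, 386 kept direction and call, 6 passed where the fit of all 4 arrays did not, and 22 turned direction, in 15 genes. The mean of all probes turned Col11a1 to -0.033, and moved Col4a6 from -1.38 to -0.73, Col8a2 from -1.64 to -0.93, Col3a1 from -0.18 to -0.44, Col7a1 from 0.28 to 0.15 and Col23a1 from -0.16 to -0.026. The other turns came from left-out arrays, over which the difference ran from -0.023 to 0.072 for Col10a1, -0.40 to 0.095 for Col14a1, -0.71 to 0.19 for Col15a1, -0.091 to 0.22 for Col17a1, -0.53 to 0.52 for Col19a1, -0.25 to 0.39 for Col1a1, -0.47 to 0.15 for Col23a1, -0.048 to 0.80 for Col4a1, -0.13 to 0.66 for Col4a2, -0.37 to 0.21 for Col5a1, -0.058 to 0.12 for Col5a2, -0.54 to 0.44 for Col6a1, -0.50 to 0.66 for Col6a2 and -0.023 to 0.58 for Col7a1. Differences of Col8a1 stayed between 1.19 and 1.52, of Col8a2 between -2.51 and -0.77, of Col4a6 between -1.59 and -1.16 and of Col4a5 between -0.94 and -0.61 over the left-out arrays. The causes were not tested.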
